A study of Mus musculus with 24 samples.

Results

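The 10 genes described here are Msr1, Trem2, Tyrobp, Cd68, Ctss, Ctsb, Ctsz, Ctsd, Spp1 and Gpnmb. They were taken by symbol as genes of activated and scavenging microglia and macrophages, 10 of 14769 genes listed in at least 1 of 4 expression tables. Each table holds a pair of groups: the 2 sides within WT, the 2 sides within KO, the 2 genotypes within PI, or the 2 genotypes within CL. All 10 genes have a row in the first 3 tables, and 7 have one in the table of the genotypes within CL, where Msr1, Cd68 and Gpnmb are not listed.

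The libraries were made from total RNA of mouse cortex, from males 3 to 4 months old. Every animal had its middle cerebral artery occluded for 1 h by a filament and was sampled after 1 day of reperfusion, so no group is without surgery. Animals were WT or KO for ciRS-7 (Cdr1as), a circular RNA that binds the microRNA miR-7, and the labels give 1 strain, C57BL/6N-Cdr1asem1Nikr, for both genotypes. The 24 libraries form 4 groups of 6. By the numbers in the sample titles, the same 6 animals of a genotype gave its CL and its PI libraries. The labels do not spell out CL and PI, and both marks are used as given. Effective depth was 5.27 to 10.5 M reads (megareads) per library, with 5.27 to 7.09 M reads in PI KO and 6.13 to 9.89 M reads in PI WT. At these depths 3 reads, the limit used for a gene with 0 reads, were worth 0.286 to 0.569 CPM (reads of a gene per M reads of its library), a figure that covers counting error only. Cdr1as, the targeted RNA, stood at 2594 to 3809 CPM over the WT groups and at no more than 0.169 CPM over the KO groups, among the values that could be recovered. Before deposit, each group's extreme values were pulled in to its quartiles, so the lowest and the highest library of a group are unknown for every gene. Except for summed marker levels and values called deposited, every range of expression given is over the 4 recoverable values of a group of 6. With the same exceptions, so is every statement that groups or sides overlap or lie apart. Tests compare the means of those 4 values, called trimmed means.

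Microglia are the resident macrophages of the brain, and after ischemia they and incoming macrophages take up dead cells and debris. Cargo is recognised by surface receptors, some of which signal through adaptor proteins that carry an activation motif, and is then broken down in lysosomes by acid proteases of the cathepsin family. Cells in this state also secrete matrix proteins such as osteopontin. In tissue RNA, more cells of a type and more RNA per cell cannot be told apart.

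Because the KO animals lack an RNA that binds miR-7, the longest annotated 3' untranslated regions of the 10 genes were searched for the letters GTCTTCC, the match to the miR-7 seed. The mature microRNAs, from RefSeq, are shown with the seed (bases 2 to 8) in capitals, followed by the matches in Ctsb, the one gene of the 10 that held any, with the match in capitals.
mmu-miR-7a-5p: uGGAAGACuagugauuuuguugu
mmu-miR-7b-5p: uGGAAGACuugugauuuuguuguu
Ctsb first match, chr14:63143859-63143881, plus strand: ctctagatGTCTTCCataaccag
Ctsb second match, chr14:63143914-63143936, plus strand: caagagctGTCTTCCttgggtac
Ctsb last match, chr14:63145419-63145441, plus strand: caatgctaGTCTTCCagagttag
Coordinates are in GRCm38, from GENCODE M21 transcripts. The 3' region of Ctsb has 3597 bases, and those of the other 9 genes have 161 to 2521. Of 21685 genes with such a region, 11.6% held the 7 letters. Among 1967 genes with a region of 0.8 to 1.25 times the length of that of Ctsb, 26.5% held at least 1 match and 0.559% held at least 3. A match is a string of letters and not a measured site, and the values of Ctsb by genotype are given below with the others.

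Promoter letters were read for the 7 genes with an entry in the RefSeq table on GRCm38.p6, which are Trem2, Cd68, Ctss, Ctsz, Ctsd, Spp1 and Gpnmb. The 250 bases before the RefSeq start were searched on both strands. For Ctsd most of this window lies within the gene as placed by GENCODE, which starts at 142388038. The strings were CACGTG, the core of the element bound by lysosomal regulators of the TFEB family, and GAGGAA, the core bound by the myeloid factor PU.1. The others were TGANTCA (N is any base), a pattern that includes sites bound by AP-1, and TCATGTG, bound by MITF. The 4 promoters shown are of genes on which the results turn or that hold a match of another kind, with all matches in capitals.
Ctsd, chr7:142387828-142388077, minus strand: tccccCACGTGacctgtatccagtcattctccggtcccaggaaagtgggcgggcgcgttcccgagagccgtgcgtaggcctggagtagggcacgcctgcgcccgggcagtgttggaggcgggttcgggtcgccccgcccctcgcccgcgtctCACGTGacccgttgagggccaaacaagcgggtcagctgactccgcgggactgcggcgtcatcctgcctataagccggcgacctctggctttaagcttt
Cd68, chr11:69666171-69666420, minus strand: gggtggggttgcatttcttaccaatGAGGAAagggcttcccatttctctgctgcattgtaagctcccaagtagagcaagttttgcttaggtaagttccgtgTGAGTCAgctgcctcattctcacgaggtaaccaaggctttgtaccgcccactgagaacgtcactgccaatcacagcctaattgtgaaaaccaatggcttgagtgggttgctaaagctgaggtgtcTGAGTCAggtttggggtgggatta
Spp1, chr5:104434861-104435110, plus strand: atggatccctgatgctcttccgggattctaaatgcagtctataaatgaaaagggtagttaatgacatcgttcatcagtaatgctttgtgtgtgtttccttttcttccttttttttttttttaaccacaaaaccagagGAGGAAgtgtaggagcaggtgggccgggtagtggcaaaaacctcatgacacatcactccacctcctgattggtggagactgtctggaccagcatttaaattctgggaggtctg
Trem2, chr17:48346151-48346400, plus strand: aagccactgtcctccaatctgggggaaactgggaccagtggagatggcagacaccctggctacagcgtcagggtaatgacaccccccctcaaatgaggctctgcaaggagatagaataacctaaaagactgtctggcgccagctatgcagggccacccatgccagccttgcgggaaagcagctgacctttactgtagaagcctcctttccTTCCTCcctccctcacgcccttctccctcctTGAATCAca
CACGTG occurred in 1 of the 7 genes, Ctsd, which held 2 copies, and in 6.04% of 32536 promoters of the table. TGANTCA occurred in 2 of the 7, Cd68 with 2 copies (TGAGTCA) and Trem2 with 1 (TGAATCA), and in 6.73% of all promoters. GAGGAA occurred in 4 of the 7 (Cd68, Ctss, Spp1 and Trem2) and in 23.4% of all promoters, and TCATGTG in 0 of the 7 and 3.27% of all. Spp1 has a second annotated start, whose 250 bases held none of the letters. The matches describe these windows only.

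The first question was which of the 10 genes differed between PI and CL cortex of the same animals. In WT, 6 of 10 were higher in PI at an adjusted p under 0.05 and none was lower, while 5.20% of all 14489 genes were higher and 5.40% lower. In KO, 7 of 10 were higher and none was lower, against 5.11% of 14338 genes higher and 4.94% lower. The genes called in both genotypes were the receptor Msr1, the adaptor Tyrobp, the lysosomal glycoprotein Cd68, the cathepsins Ctss and Ctsz, and the secreted protein Spp1. Ctsd was called in KO only by this criterion, and Trem2, Ctsb and Gpnmb were called in neither genotype. Fold differences of called genes ran from 1.20 for Ctsd in KO to 33.5 for Msr1 in WT. The recoverable values of PI lay wholly above those of CL for 7 of the 10 in WT and 8 in KO, as for 13.2% and 13.4% of all genes. The median log2 fold change of the 10 was 0.68 in WT and 0.67 in KO, against 0.01 and -0.00068 over all genes. With a prior variance that had no trend with expression, 5 of 10 were called in WT and 3 of 10 in KO, where Tyrobp, Ctsz, Ctsd and Spp1 lost their calls (adjusted p = 0.0521 to 0.0948).

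**Figure D1:**
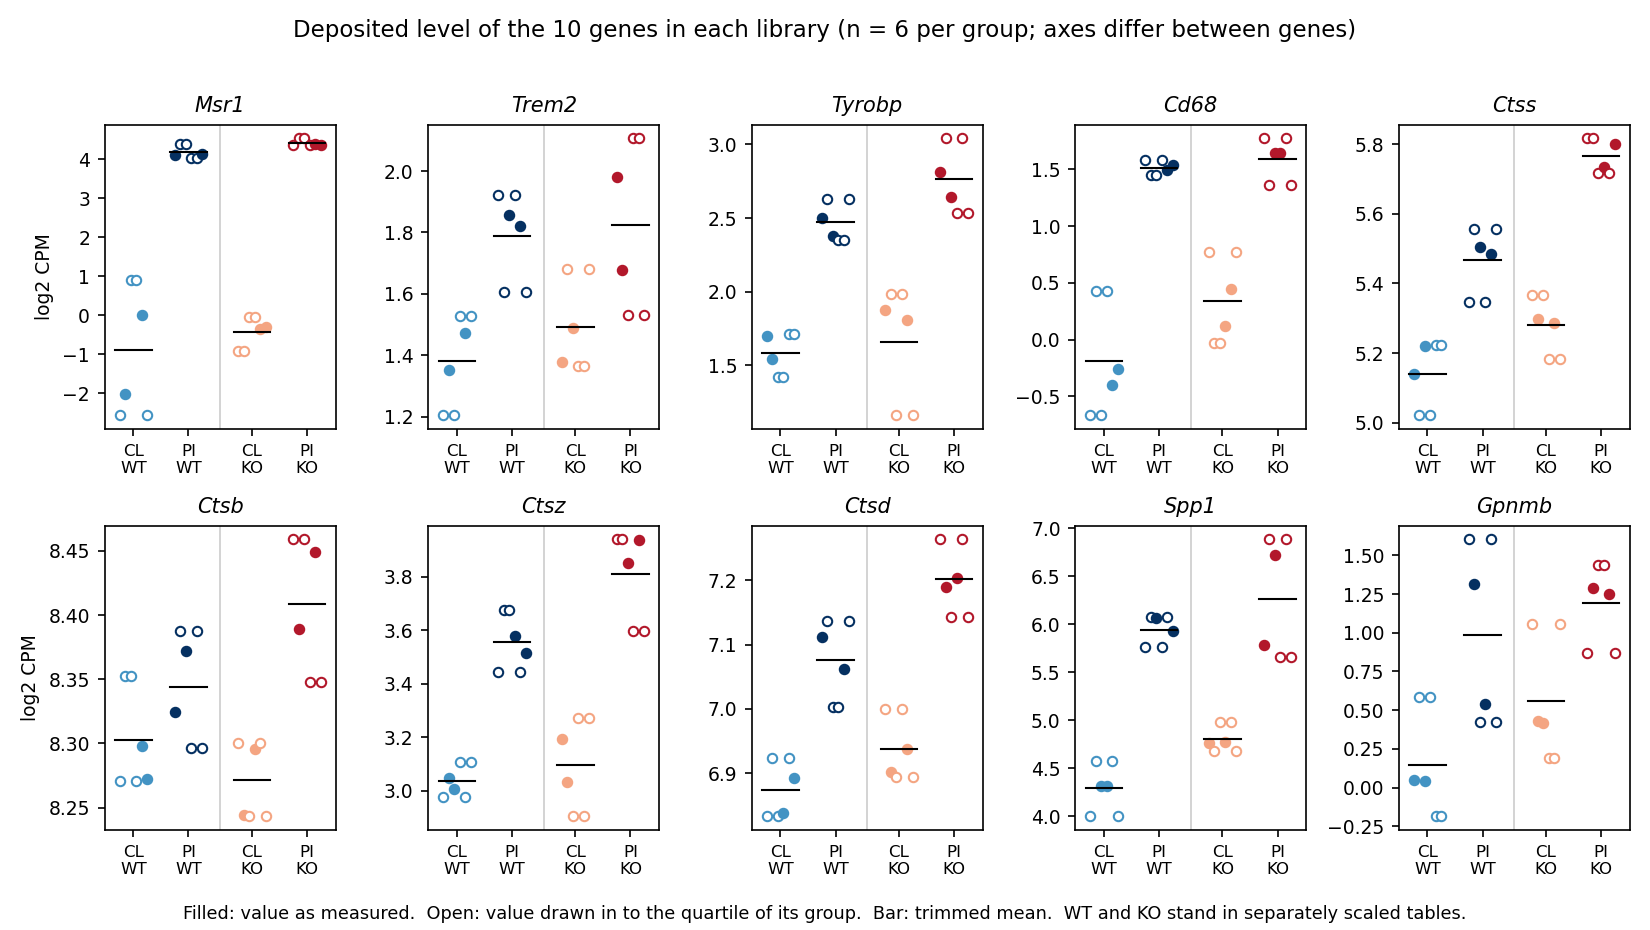
Deposited log2 CPM of each of the 10 genes (y axis, scaled per gene) in the 6 libraries of each of the 4 groups (x axis), with the trimmed mean as a bar. Filled points are values as measured, open points are values pulled in to a quartile, and WT and KO come from separately scaled tables. The points of Msr1 lie near 4 log2 CPM in PI and at or below 0.91 in CL, where the highest are values pulled in. The points of Gpnmb overlap between sides in WT and in KO, and those of Trem2 overlap in KO only.

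Msr1 (chromosome 8, 39581685 to 39642673, minus strand, in GRCm38 as for all positions here) encodes a class A scavenger receptor that binds modified lipoproteins and debris. In CL WT its recoverable values were 0.148 to 2.31 CPM, around the 3-read limit of 0.514 CPM, with a median of -1.01 on the log2 scale. In PI WT they were 15.98 to 22.3 CPM, with a median of 4.11 on the log2 scale. The 4 recoverable values of PI lay above the 4 of CL, which were spread over a wider range. On the log2 scale the difference came to 5.07 (SE 0.86, adjusted p = 0.00254), a 33.5-fold difference with a 95% interval of 9.22 to 122. In KO the values were 0.465 to 1.04 CPM in CL and 20.4 to 23.96 CPM in PI, and the groups again did not overlap. The difference was 4.85 (SE 0.29, adjusted p = 1.46e-06), a fold of 28.8 with an interval of 18.7 to 44.3. Because the CL level rests on few reads, the size of the fold depends on the offset: with 1 CPM added before the log it was 3.44 in WT and 3.67 in KO on the log2 scale.

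Trem2 (chromosome 17, 48346401 to 48354147, plus strand) encodes the lipid-sensing receptor that signals through the adaptor TYROBP. Its recoverable values were 1.15 to 1.55 log2 CPM (median 1.41) in CL WT and 1.54 to 1.94 (median 1.84) in PI WT. The lowest PI value lay just under the highest CL value. In the deposited values PI was above CL in each of the 6 animals, but pulling in the extremes fixed that count. All deposited values were at least 1.61 in PI and at most 1.53 in CL, so any pairing of animals would give it. The difference of 0.41 (SE 0.21, adjusted p = 0.266) did not pass. In KO the values were 1.36 to 1.75 (median 1.43) in CL and 1.48 to 2.15 (median 1.83) in PI, with PI higher in 4 of 6 animals. The groups overlapped, and the difference was 0.33 (SE 0.24, adjusted p = 0.442), with a 95% interval of -0.19 to 0.85 that includes a rise of the size seen in Ctsz.

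Tyrobp (chromosome 7, 30413760 to 30417585, plus strand) encodes that adaptor, also named DAP12, which serves several myeloid receptors besides TREM2. It stood at 1.37 to 1.71 log2 CPM (median 1.62) in CL WT and at 2.35 to 2.67 (median 2.44) in PI WT. The groups were apart, and Tyrobp was higher in PI by 0.89 (SE 0.18, adjusted p = 0.00639), a fold of 1.86. In KO it stood at 0.94 to 2.02 (median 1.84) in CL and 2.50 to 3.12 (median 2.73) in PI. The groups were again apart, with a wider spread in CL of KO than of WT, and the difference was 1.11 (SE 0.30, adjusted p = 0.0350).

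Cd68 (chromosome 11, 69664213 to 69666153, minus strand) encodes a glycoprotein of late endosomes and lysosomes widely used as a marker of phagocytic cells. Its recoverable values were -0.76 to 0.66 log2 CPM (median -0.33) in CL WT and 1.43 to 1.60 (median 1.52) in PI WT. The 4 recoverable values of PI were above the 4 of CL, with a log2 difference of 1.71 (SE 0.39, adjusted p = 0.0136), a fold of 3.27. In KO the values were -0.08 to 0.88 (median 0.28) in CL and 1.27 to 1.82 (median 1.64) in PI. The sides did not overlap there either, and the difference was 1.25 (SE 0.33, adjusted p = 0.0304), a fold of 2.38. Its trimmed mean in CL WT was 0.877 CPM, and with 1 CPM added before the log the difference was 1.02 in WT and 0.82 in KO, called in both.

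The 4 cathepsins covered a range from no detectable difference to a clear one. Ctss (chromosome 3, 95526786 to 95556403, plus strand) encodes cathepsin S, a cysteine protease of myeloid cells that also works outside the lysosome. It stood at 4.98 to 5.22 log2 CPM (median 5.18) in CL WT and 5.30 to 5.58 (median 5.49) in PI WT. The groups were separate but close, and the difference of 0.32 (SE 0.10, adjusted p = 0.0488) lay at the edge of the threshold. That call was lost when each library was centred on its own median gene (adjusted p = 0.0698) and under a prior variance without a trend (adjusted p = 0.119). In KO, Ctss stood at 5.15 to 5.39 (median 5.29) in CL and 5.71 to 5.82 (median 5.77) in PI. The sides were farther apart there, by 0.49 (SE 0.08, adjusted p = 0.00265).

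Ctsz (chromosome 2, 174427493 to 174439039, minus strand) encodes cathepsin Z, a carboxypeptidase. Its values were 2.97 to 3.13 log2 CPM (median 3.03) in CL WT and 3.42 to 3.71 (median 3.55) in PI WT. The groups did not overlap, and the difference was 0.52 (SE 0.12, adjusted p = 0.0123). In KO they were 2.86 to 3.30 (median 3.11) in CL and 3.51 to 3.94 (median 3.90) in PI, again without overlap. The difference in KO was 0.72 (SE 0.16, adjusted p = 0.0155).

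Ctsd (chromosome 7, 142375911 to 142388038, minus strand) encodes cathepsin D, the main aspartic protease of lysosomes in most cell types. It stood at 6.83 to 6.93 log2 CPM (median 6.86) in CL WT and 6.98 to 7.15 (median 7.09) in PI WT. The groups did not overlap, and the difference of 0.20 (SE 0.06) just missed the threshold (adjusted p = 0.0536). With the animal as a replicate block it passed (adjusted p = 0.0206), and in KO it passed in both fits. The SE in WT was no smaller with the block (0.0632 against 0.0614), so that pass does not show a tighter estimate. KO values were 6.89 to 7.02 (median 6.92) in CL and 7.13 to 7.28 (median 7.20) in PI, a difference of 0.26 (SE 0.06, adjusted p = 0.0214). Ctsd shares 34.4% of its exon bases with Gm49369 on the same strand, and how such reads were assigned is not stated.

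Ctsb (chromosome 14, 63122462 to 63145923, plus strand) encodes cathepsin B, another lysosomal cysteine protease. It stood at 8.27 to 8.37 log2 CPM (median 8.29) in CL WT and 8.29 to 8.39 (median 8.35) in PI WT, groups that overlapped. The difference was 0.04 (SE 0.05, adjusted p = 0.706), with a 95% interval of -0.07 to 0.16, which excludes a rise as large as that of Ctsd in KO. In KO the values were 8.24 to 8.30 (median 8.27) in CL and 8.33 to 8.46 (median 8.42) in PI. They did not overlap, yet the difference of 0.14 (SE 0.05, adjusted p = 0.133) did not pass. In both genotypes the deposited value was higher in PI than in CL in 6 of 6 animals. In KO every deposited PI value lay above every CL value, so there any pairing of animals would give this count. Fdft1, on the opposite strand, covers 12.8% of the exon bases of Ctsb, and its own difference between PI and CL was 0.17 in WT (adjusted p = 0.266) and 0.12 in KO (adjusted p = 0.439).

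Spp1 (chromosome 5, 104435118 to 104441050, plus strand) encodes osteopontin, a secreted protein that binds CD44 and integrins. It stood at 3.89 to 4.67 log2 CPM (median 4.31) in CL WT and 5.71 to 6.08 (median 5.99) in PI WT. The recoverable values of PI were all above those of CL, and the difference was 1.65 (SE 0.18, adjusted p = 0.000160), a fold of 3.14 with an interval of 2.38 to 4.13. In KO it stood at 4.65 to 5.05 (median 4.77) in CL and 5.62 to 6.94 (median 6.25) in PI. The difference in KO was 1.46 (SE 0.31, adjusted p = 0.0109), a fold of 2.75. Moderation made this SE smaller than that of the PI KO mean alone (0.43), so it understates the spread between those animals. The PI KO libraries fell into a higher and a lower set with none between: animals 2, 3 and 5 had deposited values of 6.72 to 6.88, and animals 1, 4 and 6 had 5.66 to 5.79. The recoverable values of both sets lay above those of CL KO. A predicted gene on the same strand, Gm42793, overlaps 18.8% of the exon bases of Spp1.

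Gpnmb (chromosome 6, 49036546 to 49070929, plus strand) encodes a transmembrane glycoprotein of lysosome-rich, lipid-laden macrophages. Its values were -0.26 to 0.77 log2 CPM (median 0.04) in CL WT and 0.38 to 1.70 (median 0.93) in PI WT. The groups overlapped, PI was higher in 5 of 6 animals by the deposited values, and the difference was 0.84 (SE 0.44, adjusted p = 0.283). In KO the values were 0.12 to 1.26 (median 0.42) in CL and 0.74 to 1.48 (median 1.27) in PI, higher in PI in 4 of 6 animals. The difference was 0.63 (SE 0.37, adjusted p = 0.323), and the 95% intervals, -0.12 to 1.80 in WT and -0.17 to 1.44 in KO, are too wide to tell a rise like that of Cd68 from none.

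**Figure D2:**
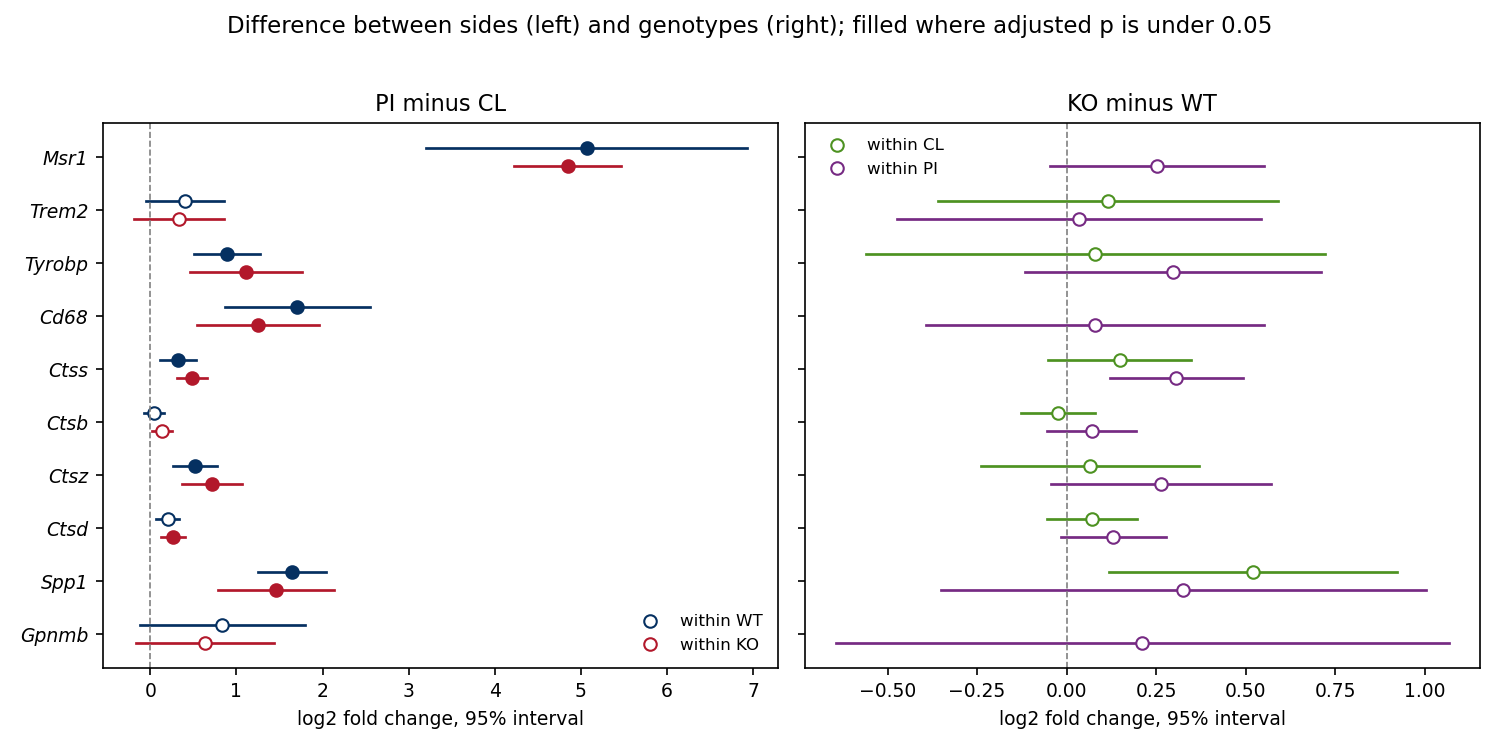
Log2 fold change of each gene with its 95% interval, for PI minus CL within WT and within KO (left) and for KO minus WT within CL and within PI (right, on a narrower x axis). Points are filled where the adjusted p is under 0.05: 6 in WT and 7 in KO on the left, and 0 on the right, where Msr1, Cd68 and Gpnmb have no value within CL.

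Levels of different genes were compared as CPM per kilobase of exon. In CL WT the order began with Ctsb (52.2 CPM per kb) and Ctsd (49.9), whose values overlapped, then Ctss (26.0), Spp1 (11.9), Ctsz (5.70) and Tyrobp (4.49). Cd68 (0.698) and Trem2 (0.527) overlapped, as did Gpnmb (0.170) and Msr1 (0.0850) at the bottom. In PI WT, Spp1 (37.4 CPM per kb) stood in place 3, above Ctss (32.5) but overlapping it, and Msr1 (2.85) stood in place 7, above Cd68 (2.28) with no overlap, Trem2 (0.699) and Gpnmb (0.304). Tyrobp (8.33) and Ctsz (8.17) overlapped. The order in PI KO was the same, with Ctsd at 62.6, Ctsb at 56.2 and Spp1 at 46.7 CPM per kb, and there the values of Spp1 overlapped those of Ctsb and of Ctss. Cathepsins B and D, made in most cell types, thus had higher trimmed means per length than the other 8 genes in both sides, in levels that a whole-tissue sample takes from all its cells. When the longest transcript replaced the union of exons, Ctsb stood first in both sides of both genotypes, ahead of Ctsd.

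In CPM, which counts reads and not molecules per length, the 10 genes together took 504 CPM in CL WT and 609 in PI WT, and 516 in CL KO and 670 in PI KO (sums of trimmed means). Spp1 made up the largest share of the gain, 40.0% in WT and 32.0% in KO. Ctsd gave 16.8% and 16.1%, and Msr1 gave 16.7% and 13.5%. Ctsb gave 8.69% in WT and 20.2% in KO, although its fold was close to 1 and did not pass in either genotype. Trem2, Tyrobp, Cd68 and Gpnmb each gave 2.44% or less. A gene with a small fold and a high level can therefore add more reads than one with a large fold and a low level, and the CPM gain is a description with no test.

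**Figure D3:**
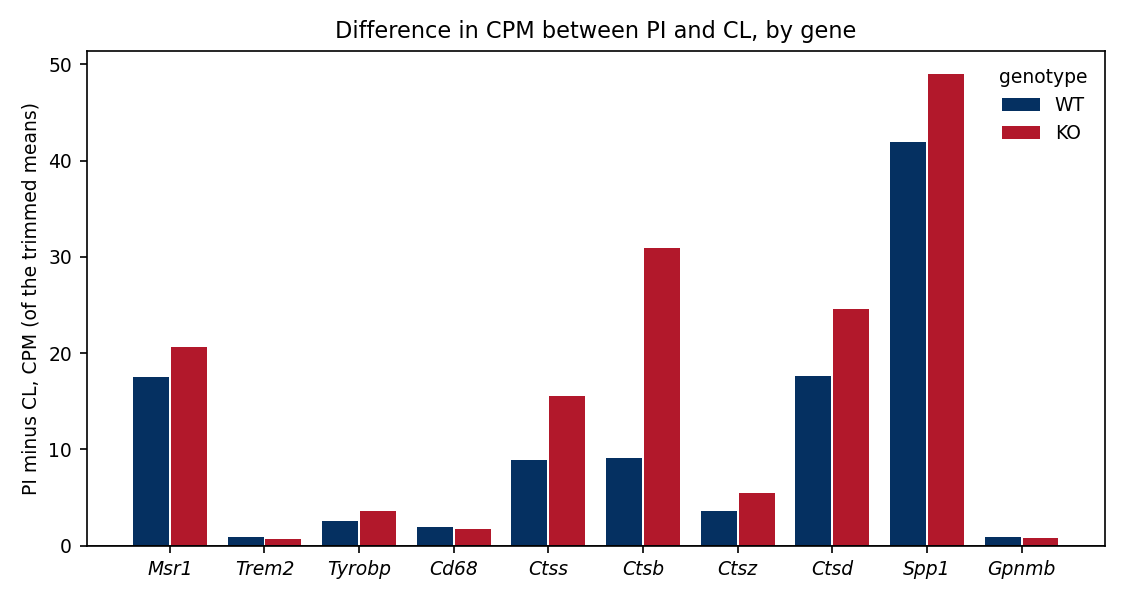
PI minus CL in CPM (y axis, difference of the trimmed means) for each of the 10 genes (x axis), in WT and KO. Spp1 has the tallest bar in both genotypes, 41.9 CPM in WT and 49.0 in KO, and the bar of Ctsb is 9.12 CPM in WT and 30.9 in KO.

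The second question, the stated aim of the series, was whether expression differed between KO and WT within a side. Within PI, 0 of the 10 genes passed, where 0.0208% of 14452 genes did, and 1 of 10, Ctss, had an unadjusted p under 0.05, against 5.75% of all genes. All 10 log2 fold changes were above 0 (48.5% over all genes), with a median of 0.23, against -0.0049 over all genes. All 10 were read in the same libraries, so their common sign is not 10 separate results. Ctss stood at 5.74 to 5.85 log2 CPM (median 5.80) in PI KO and 5.33 to 5.61 (median 5.52) in PI WT. The PI KO values lay wholly above those of PI WT, as for 4.39% of all genes, and the difference of 0.31 (SE 0.09, adjusted p = 0.768) did not pass.

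Of the other 9 genes within PI, Spp1 differed by 0.33 (SE 0.31), Tyrobp by 0.30, Ctsz by 0.26, Msr1 by 0.25, Gpnmb by 0.21, Ctsd by 0.13, Cd68 by 0.08, Ctsb by 0.07 and Trem2 by 0.03. Their recoverable values overlapped between the genotypes in each case. The intervals differ in what they leave possible: that of Ctsb ran from -0.06 to 0.20, while those of Spp1, from -0.35 to 1.00, and Gpnmb, from -0.64 to 1.07, include a change of the size of 1 on the log2 scale. For Spp1, 3 of the PI KO animals lay above and the other 3 below the trimmed mean of PI WT in this table, which was 5.97 log2 CPM. The moderated SE of the Spp1 difference, 0.31, was smaller than that of the PI KO mean alone, 0.43. The interval of Spp1 therefore understates the spread between those animals.

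Within CL, 0 of the 7 listed genes passed, where 0.0279% of 14323 genes did. Spp1 stood at 4.62 to 5.02 log2 CPM (median 4.74) in KO and 3.86 to 4.63 (median 4.27) in WT. It differed by 0.52 (SE 0.19, adjusted p = 0.793). It was the 1 gene of the 7 with an unadjusted p under 0.05, against 820 of all 14323 genes. The lowest KO value lay just under the highest WT value. Ctss differed by 0.15, Trem2 by 0.12, Tyrobp by 0.08, Ctsd by 0.07, Ctsz by 0.06 and Ctsb by -0.02, with adjusted p of 0.902 or more. Ctsb, the gene with miR-7 seed matches, had a trimmed mean of 8.24 log2 CPM in KO and 8.27 in WT. Its 95% interval, -0.13 to 0.08 in CL, leaves a difference in either direction of no more than 0.13.

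Whether the difference between PI and CL depended on the genotype was tested as the PI minus CL difference in KO less that in WT. No gene passed, of the 10 or of all 14211 (0%, smallest adjusted p = 0.992), and 0 of the 10 had an unadjusted p under 0.05, against 4.55% of all genes. The sign was positive for 5 of the 10. The values ran from -0.45 for Cd68 (SE 0.52, 95% interval -1.53 to 0.62) to 0.22 for Tyrobp (SE 0.37, interval -0.55 to 0.98). For the cathepsins they were 0.20 for Ctsz, 0.16 for Ctss (interval -0.11 to 0.43), 0.10 for Ctsb (interval -0.06 to 0.25) and 0.06 for Ctsd (interval -0.12 to 0.24). A gene called in 1 genotype only, such as Ctsd, was therefore not shown to differ between the genotypes. The value for Msr1, -0.22 (SE 1.02), turned to 0.17 and 0.23 when 0.5 or 1 CPM was added before the log.

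The genes around these 10 were taken from 11 lists of related genes, ordered here from receptor to lysosome. Their counts stand beside shares over all genes of 5.20% higher and 5.40% lower in WT, and 5.11% and 4.94% in KO. Of 22 phagocytic and scavenger receptors, 15 had a row in WT, where 8 rose in PI and none fell, and 16 in KO, where 8 rose and none fell. Cd14, a co-receptor for lipopolysaccharide, rose by 3.41 in WT and 3.04 in KO. The Fc receptors Fcgr2b (1.64 and 1.99) and Fcgr1 (1.53 and 1.74) and the integrin chain Itgb2 (1.34 and 1.08) rose too. The list had a median of 0.67 in WT and 0.71 in KO, against 0.01 and -0.00068 over all genes.

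Of 13 listed genes of TREM2 and TYROBP signalling (16 in the list), 5 rose in WT and 6 in KO, and none fell. They included the exchange factor Vav1 (1.69 in WT and 1.39 in KO), the adaptor Lcp2 (1.65 and 1.55), the TYROBP-coupled receptor Clec5a (1.42 and 1.64) and the kinase Lyn (0.97 in both). Adam17, a protease that sheds TREM2, rose by 0.35 in KO. Among 8 listed bridging and opsonising proteins, 4 rose and 2 fell in each genotype. Pros1, which bridges to the receptors MERTK and AXL, rose by 1.36 and 1.10, and the complement subunits C1qb (0.87 and 1.01), C1qa (0.69 and 0.79) and C1qc (0.54 and 0.75) rose as well. Mfge8, a bridge to integrins, fell by 0.59 and 0.42, and Apoe, a lipid carrier and TREM2 ligand that astrocytes also make, fell by 0.50 and 0.30.

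Lists of lysosomal genes come next. Of 8 other cathepsins, 3 rose in each genotype, namely Ctsc (1.55 and 1.20), Ctsl (0.28 and 0.54) and the asparaginyl protease Lgmn (0.32 and 0.37). Of 6 cathepsin inhibitors, Serpina3n rose by 2.54 and 2.72, and Cstb, which encodes cystatin B, rose in KO by 0.48. Among 25 lysosomal hydrolases, 1 rose and 1 fell in each genotype. Gusb rose by 0.60 in WT, and Arsb fell by 0.47 and 0.48. Of 14 lysosomal membrane proteins, Cd63 (1.12 and 1.06) and Lamp2 (0.22 and 0.25) rose. Of 16 subunits of the vacuolar ATPase, which acidifies the lysosome, none rose, and Atp6ap1 fell by 0.22 in WT. The medians of the hydrolases (0.10 and 0.04), membrane proteins (-0.01 and 0.03) and ATPase subunits (0.02 and -0.05) lay close to those over all genes.

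The remaining lists cover transcription factors, osteopontin receptors and genes of disease-associated microglia. Of 12 MiT/TFE and myeloid transcription factors, Runx1 rose (1.15 and 0.80), and Cebpb rose in KO by 0.75. Of 9 receptors of osteopontin, Cd44 rose by 2.36 in WT and 1.63 in KO, Itga5 (1.53) and Itgb1 (0.23) rose in WT, and Itga4 (-0.38 and -0.56) and Itga8 (-0.52 and -0.44) fell in both. Of 13 listed genes of disease-associated microglia (20 in the list), 7 rose and 1 fell in WT, and 6 rose and 1 fell in KO. The chemokine Ccl6 (1.50 and 2.22), the lipase Lpl (1.25 and 1.54), Cd63 and the tetraspanin Cd9 (0.83 and 0.85) led this list, and Apoe was the gene that fell. Some genes, Ctsl, Cd63, Apoe and Axl among them, stand in 2 of the lists used here. Between KO and WT, none of the genes of the 11 lists passed in PI or in CL. Within PI, the smallest unadjusted p among them were those of C1qc (0.35, adjusted p = 0.768) and C1qb (0.32, adjusted p = 0.768).

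**Figure D4:**
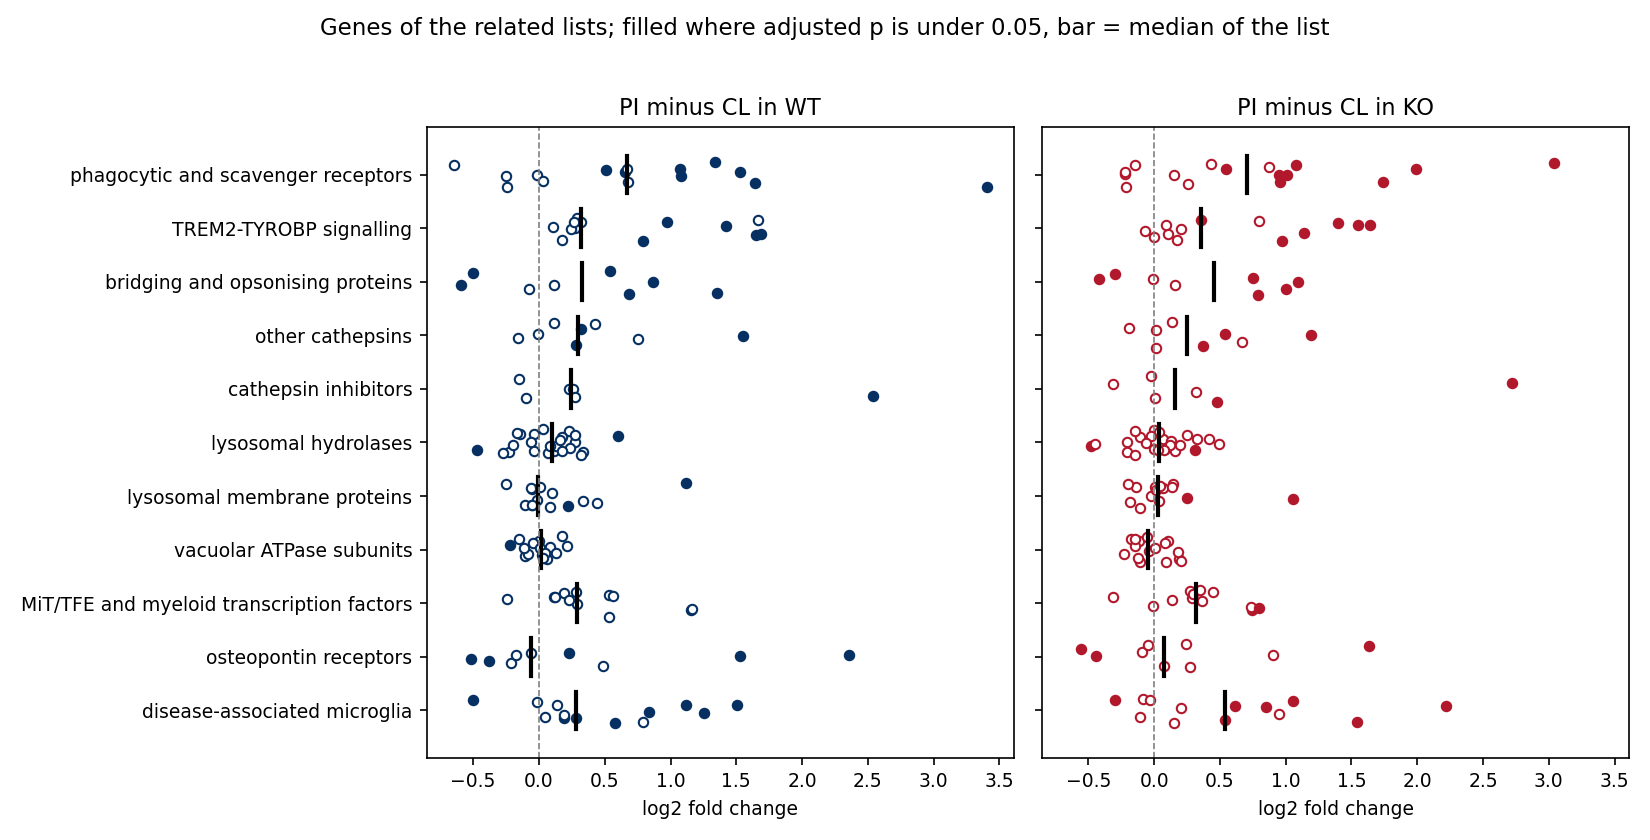
Log2 fold change of PI minus CL (x axis) for each gene of the 11 related lists (rows), in WT (left) and KO (right). Filled points passed an adjusted p of 0.05 and the bar is the median of the list: 0.67 and 0.71 for phagocytic and scavenger receptors, and -0.01 and 0.03 for lysosomal membrane proteins.

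Markers of cell types were read in the same tables. Their sums were taken in each of the 6 libraries of a group from the deposited, pulled-in values. The ranges of the sums therefore understate the spread between animals. All 12 markers of homeostatic microglia were listed. In WT, Gpr34 (-1.22), Siglech (-0.96) and the purinergic receptor P2ry12 (-0.82) fell in PI while Aif1 (0.95), Olfml3 (0.77) and the fractalkine receptor Cx3cr1 (0.71) rose. In KO, 1 fell, P2ry12 (-0.75), and 2 rose, among them Cx3cr1 (0.64). Their summed level was 191 to 222 CPM in PI WT and 195 to 208 in CL WT, ranges that overlap, and 212 to 258 in PI KO and 203 to 231 in CL KO. Of 8 markers of border-associated macrophages, 5 were listed and 3 (Mrc1, Lyve1 and F13a1) rose in each genotype. Their sum was 31.1 to 36.9 CPM in PI WT against 20.0 to 22.4 in CL WT, and 30.9 to 38.3 in PI KO against 21.1 to 23.8 in CL KO. These markers moved with Msr1, Cd68 and Spp1, which macrophages also express, and their part in the differences between PI and CL was not tested. Of 15 markers of neutrophils and monocytes, 0 have a row in the tables of PI with CL. A missing row there does not show that a gene was absent, since S100a8 and S100a9 have one between PI KO and PI WT.

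Between PI KO and PI WT, 10 of the 12 microglia markers were positive (median 0.20, none called), and their sum was 217 to 265 CPM in PI KO and 194 to 226 in PI WT. S100a8 and S100a9, the 2 neutrophil and monocyte markers with a row in that table, summed to 3.39 to 9.32 CPM in PI KO and 2.20 to 4.12 in PI WT, with a log2 fold change of 1.16 for S100a8 (adjusted p = 0.854). The part of either in the positive signs of the 10 genes within PI was not tested. Neuron markers, all 8 of them listed, summed to 5158 to 5771 CPM in PI WT and 6007 to 6510 in CL WT, with Snap25 (-0.30 and -0.31) and Syt1 (-0.25 and -0.27) lower in PI in both genotypes and Gad2, of inhibitory neurons, higher in KO (0.38). Astrocyte markers summed to 6288 to 6690 CPM in PI WT and 7275 to 7672 in CL WT, sums made up mostly of Slc1a2. Of the 6 markers, Aqp4, a water channel, rose in both genotypes (0.27 and 0.41), the gap junction gene Gja1 fell in both (-0.35 and -0.43), and Slc1a2 (-0.23) and Gjb6 (-0.26) fell in WT. In KO the neuron sum was 4967 to 5591 CPM in PI and 6047 to 6294 in CL, and the astrocyte sum was 6112 to 6795 and 7297 to 7798. Of 6 oligodendrocyte markers, Cnp fell in WT (-0.41) and none passed in KO, and of 6 endothelial markers none passed in either genotype. Of 4 listed striatal markers, 1 rose in WT, Ppp1r1b (0.63), and 1 fell, while in KO 0 rose and 1 fell. Their sum was 100 to 121 CPM in PI WT and 120 to 151 in CL WT. Hemoglobin genes of blood had sums that overlapped between sides, at 30.0 to 50.4 CPM in PI WT and 12.3 to 52.1 in CL WT.

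Apart from side and genotype, the 10 genes as a set did not vary together to any clear degree. With the group means removed, Pearson's r over 12 libraries had a median of 0.07 over the 45 pairs of members in WT (28 of 45 positive) and 0.03 in KO (24 of 45 positive). Single pairs ran from -0.66 to 0.70 in WT and from -0.37 to 0.60 in KO. With the mean of the other members, Ctsz, Ctsb and Ctsd had r of 0.65, 0.61 and 0.59 in KO. In WT these were 0.06, 0.31 and 0.38. These are descriptions, since the libraries share the drawn-in values and depth differs among them. The genes whose remaining pattern was most like the standardised mean of the 10, by the lower r of the 2 tables, were Abhd4 (0.74 in both), Ddost (0.71 in WT and 0.77 in KO), Rack1 (0.72 and 0.69), Rpl7l1 (0.67 and 0.82) and Dnajb11 (0.66 and 0.74), over 12 libraries each. They are the top of 14201 genes screened, and none of the 5 stands in any list used here. Of them, Rack1 was higher in PI in both genotypes (0.24, adjusted p = 0.0167 in WT, and 0.35, adjusted p = 0.00485 in KO).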

How the data were processed

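Ribosome-depleted total RNA was sequenced in 24 libraries. The deposited values are log2 CPM per gene, 1 table for each pair of groups, per the file headers. The submitters' processing notes name the build mm10, while aligner, counting, use of strand, filter and scaling are not given in the sources used here. In 100% of genes the 2 lowest and the 2 highest of 6 deposited log2 values were tied at the quartiles of their group, a step no label records. The second lowest and second highest were solved from that (weights 0.75 and 0.25), and depth was read from the step between low values. All value columns matched a sample (0 unused).

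For each gene, group means of the 4 recovered values were compared by a trimmed-mean test with Winsorized error (6 or 12 degrees of freedom), moderated by limma 3.58.1 in R 4.3.3 with a mean-dependent prior, two-sided, Benjamini-Hochberg over all genes of a table. Every SE and adjusted p comes from it unless another fit is named, with n = 6 libraries per group. Calls are at an adjusted p under 0.05. The test was tested on simulated data. CL and PI libraries of 1 genotype are taken as paired by animal, because their titles carry the same number. The main test does not use the pairing. Deviations from the group means correlated within animals at -0.14 to 0.30 in WT and -0.02 to 0.16 in KO. Animal numbers do not pair WT with KO. The 10 genes, the 11 related lists and the 9 marker lists were chosen with earlier results of these data known. From each list the text names called genes, up to 4 in each direction by size of change. Positions, exon lengths and untranslated regions are from GENCODE M21 on GRCm38, which all 10 symbols matched, and promoters and microRNAs from RefSeq. Alternatives tried were limma on the deposited values, a prior with no trend, centring of libraries, pseudocounts, a filter at 1 CPM, the animal as a block, and another gene length. Values of 2 listed genes are not reported here.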

Additional observations from a re-analysis of the deposited data

How the results depend on the processing

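No fold change between PI and CL of the 10 genes changed sign under any alternative run. With limma on the deposited, drawn-in values, calls over all genes rose from 1537 to 6459 in WT, from 1440 to 6666 in KO, from 3 to 2388 for PI KO with PI WT, from 4 to 2311 for CL KO with CL WT and from 0 to 1940 for the interaction. Of the 10 genes, 4 (Msr1, Ctss, Ctsz, Ctsd) were then called between PI KO and PI WT, and 1 (Spp1) between CL KO and CL WT. That test understates the spread between animals, since the values were drawn in. A prior with no trend gave 1015 calls in WT and 739 in KO, and 3 of the 10 genes in KO. With the animal as a replicate block the trimmed-mean test called 2275 and 2154 genes and changed 1 call among the 10, that of Ctsd in WT, and limma with the block on the deposited values called 6614 and 6759. Centring each library on its median gene moved the share of calls higher in PI from 49.1% to 36.5% in WT and from 50.8% to 37.3% in KO. The interaction of Msr1, -0.22, reversed to 0.17 with log2(CPM + 0.5) and 0.23 with log2(CPM + 1), with an adjusted p above 0.99 in all 3. Ctsd in WT was called with either pseudocount (adjusted p = 0.04996 and 0.0495). The filter at 1 CPM changed no call. Msr1, Cd68 and Gpnmb stand near the 3-read limit in CL, which limits the precision of their folds.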
